A study of Mus musculus with 3 samples.

Results

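The basal keratins *Krt5*, *Krt14*, *Krt15* and *Krt17* were followed through the epithelium of the mouse larynx. They were chosen by symbol and are 4 of the 33696 features counted, with 1 feature for each symbol. The values come from single-cell RNA sequencing of cells sorted for the red reporter tdTomato from larynges of *Lrig1CreERT2/+; ROSALSL-tdTomato/+* mice, collected 1 day after recombination. In these mice Cre is driven from the *Lrig1* locus and, once tamoxifen is given, removes a stop cassette before tdTomato, so that cells expressing *Lrig1* at that time and their progeny carry the reporter. Tamoxifen was injected on 2 consecutive days, and all 3 libraries share this genotype and treatment. A library holds the cells of 10 larynges, with 5 mice of each sex, which makes the pool the unit of replication (n = 3). Single animals cannot be told apart. In the main fits p-values rest on the spread between these 3 pools. Fits with the library as a block first take out the level of each pool. Their p-values and errors rest on how far the differences between classes vary from pool to pool. The tests estimate either spread partly from all genes together. The reporter and the recombinase were not counted as features, and the sort was therefore not checked here.

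Keratins build the intermediate filaments of epithelial cells as pairs of a type I and a type II chain. *Krt5* encodes a type II chain of basal cells and *Krt14* the type I chain it usually pairs with. *Krt15* and *Krt17* encode other type I chains: *Krt15* is known from basal cells of stratified epithelia and from the hair follicle bulge, and *Krt17* from skin appendages and from epithelium responding to injury. In the larynx a stratified squamous epithelium covers the vocal folds, and a pseudostratified airway epithelium with ciliated and secretory cells lies next to it. Basal cells of both express the transcription factor p63, encoded by *Trp63*.

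On the GRCm39 build the GENCODE annotation placed the 3 type I genes in the keratin cluster of chromosome 11 and *Krt5* in that of chromosome 15, all on the minus strand. *Krt15* (ENSMUSG00000054146) spanned chr11:100022584-100026775, *Krt14* (ENSMUSG00000045545) chr11:100093988-100098490 and *Krt17* (ENSMUSG00000035557) chr11:100147040-100151974, each with 8 exons in its canonical transcript. *Krt5* (ENSMUSG00000061527) spanned chr15:101615505-101621346, with 9 exons. *Krt15* and *Krt14* lay 67.2 kb apart, with *Krt19* and *Krt9* between them, and *Krt14* and *Krt17* lay 48.5 kb apart, with *Krt16* between them. In the last 600 bases of the transcripts, near which reads of a 3′ library fall, *Krt14* and *Krt17* shared an identical stretch of 71 bases, and no other pair of the 4 shared more than 17. How reads of that stretch were assigned is not known here, so values that set *Krt14* against *Krt17* are uncertain to that extent.

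The 250 bases before the start of the canonical transcripts of *Krt5*, *Krt14* and *Krt17* are shown as the nearest upstream sequence of 3 of the 4 members. All 4 varied together over the classes below, with Pearson's r of log2(CPM + 1) between pairs of 0.73 (*Krt14* with *Krt15*) to 0.96 (*Krt5* with *Krt17*) over 27 sums, points that share libraries. These points include *Foxj1*+ cells, in which all 4 lay at 0.656 to 2.20 times the floor of free RNA described below. The r without them was not computed. The sequences are written in the direction of transcription, with matches to the searched motifs in capitals, and come in this order from chr15:101621347-101621596, chr11:100098491-100098740 and chr11:100151975-100152224.
Krt5: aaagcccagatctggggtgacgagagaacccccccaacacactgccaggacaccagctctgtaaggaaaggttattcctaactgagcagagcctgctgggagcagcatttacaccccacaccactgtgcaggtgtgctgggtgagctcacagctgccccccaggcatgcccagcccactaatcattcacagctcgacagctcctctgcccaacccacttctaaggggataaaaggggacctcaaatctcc
Krt14: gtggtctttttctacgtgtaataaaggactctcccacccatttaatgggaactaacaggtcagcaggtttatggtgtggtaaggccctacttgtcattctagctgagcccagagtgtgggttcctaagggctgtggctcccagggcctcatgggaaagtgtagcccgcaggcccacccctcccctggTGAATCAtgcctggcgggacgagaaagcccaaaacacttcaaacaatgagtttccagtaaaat
Krt17: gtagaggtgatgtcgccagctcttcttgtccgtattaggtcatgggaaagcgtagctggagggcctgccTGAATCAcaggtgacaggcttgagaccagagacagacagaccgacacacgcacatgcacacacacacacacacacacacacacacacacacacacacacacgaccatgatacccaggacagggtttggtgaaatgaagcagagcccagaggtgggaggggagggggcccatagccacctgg
Both strands were searched for 5 motifs. The letters searched for AP-1, TGANTCA with any base at N, stood before 2 of these 3 genes, starting 63 bases before *Krt14* and 181 before *Krt17*. Both matches read TGAATCA, and 6.18% of 21757 windows of the same length held a match to TGANTCA. The letters of AP-2, GCCNNNGGC, were found in 13.2% of windows and before none of the 3. The TATA box, TATAAA, was found in 11.9% and before none. The GC box, GGGCGG, was found in 36.3% and before none. The Grainyhead-like letters, AACCNGTT, were found in 1.79% and also before none, so that none of the searched letters stood before *Krt5*. These matches describe letters in these windows only.

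Cells were put into 9 classes by their counts of unique molecular identifiers (UMIs) for 6 genes other than the 4 keratins. *Trp63*+ cells had at least 2 *Trp63* UMIs. Those not high in *Krt13* or *Scgb3a2*, as defined next, and with under 2 *Foxj1* UMIs were divided by *Tmprss11a*, a protease gene of squamous epithelium, and *Nkx2-1*, a transcription factor of the airway and thyroid, into cells with one of them (at least 2 UMIs, the other at 0), with both, or with neither (both at 0). *Krt13*-high cells carried at least 10 UMIs of *Krt13*, a keratin of suprabasal squamous cells, and *Scgb3a2*-high cells at least 10 of *Scgb3a2*, a secretoglobin of airway secretory cells. Each was divided by *Trp63*, *Trp63*- cells having none, and *Foxj1*+ cells had at least 2 UMIs of this regulator of motile cilia and no *Trp63*. Libraries 1, 2 and 3 kept 13222, 7201 and 24119 cells with median depths of 10557.5, 14077 and 10230.0 UMIs, and shared 46 (libraries 1 and 2), 165 (1 and 3) and 96 (2 and 3) cell barcodes. The 9 classes did not overlap and held 40.0%, 52.5% and 54.9% of these cells, so that some *Trp63*+ cells were in none. The class sizes ran from 77, 38 and 147 *Krt13*-high *Trp63*- cells to 1468, 1566 and 5417 *Trp63*+ *Tmprss11a*+ cells in the 3 libraries. A level is a gene's UMIs summed over the cells of a class in a library, scaled by the total of that sum to a common depth and given in CPM. Overlap or separation of the ranges over the 3 libraries is a description. The share of all genes with separate ranges was not computed for any pair of classes.

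The classes were checked against markers that were not used in the gates. The summed level of 7 suprabasal squamous markers averaged 2749 CPM in *Krt13*-high *Trp63*+ and 3062 CPM in *Krt13*-high *Trp63*- cells, against 710.2 CPM in *Trp63*+ *Tmprss11a*+ and 123 CPM in *Trp63*+ *Nkx2-1*+ cells. The 7 secretory markers summed to 171901 CPM in *Scgb3a2*-high *Trp63*- cells, and the 7 ciliated markers to 7772 CPM in *Foxj1*+ cells and at most 99.3 CPM in the other 8 classes. Secretory markers did not set *Trp63*+ *Tmprss11a*+ cells (6313 to 8812 CPM over the libraries) apart from *Trp63*+ *Nkx2-1*+ cells (8132 to 10002 CPM). The 9 basal markers summed to between 3633 and 5486 CPM in the 6 *Trp63*+ classes. They did not set these apart from *Krt13*-high *Trp63*- cells, at 4113 CPM, while *Scgb3a2*-high *Trp63*- and *Foxj1*+ cells held 1095 and 189 CPM. The 4 gland markers summed to 10974 CPM in *Scgb3a2*-high *Trp63*- cells (9637 to 12088 over the libraries) and 4124 CPM in *Krt13*-high *Trp63*- cells (2649 to 6955). *Trp63*+ cells with neither gene held 502 to 1289 CPM of fibroblast, 2.98 to 228 CPM of endothelial and 0.702 to 74.3 CPM of macrophage markers over the 3 libraries, at a median depth of 5637 to 9520 UMIs. These ranges overlapped with those of other classes. The muscle satellite markers of the cells with neither gene, at a mean of 72.3 CPM and at least 46.5 CPM in each library, lay above those of the other 8 classes, of which *Scgb3a2*-high *Trp63*- cells were next at 14.7 to 28.4 CPM. Gland markers, at 304 to 974 CPM, and myoepithelial markers, at 10.5 to 81.9 CPM, had higher means in these cells than in the other 5 *Trp63*+ classes, with the gland range overlapping that of *Scgb3a2*-high *Trp63*+ cells (60.1 to 323 CPM).

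RNA free in the droplets sets a floor under every level. It was read from fibroblasts, endothelial cells, macrophages and muscle satellite cells, which had none of *Trp63*, *Nkx2-1*, *Tmprss11a* and *Foxj1* and at least 2 UMIs of at least 3 markers of their own type. The highest level in such a class in libraries 1, 2 and 3 was 24.2, 22.2 and 71.1 CPM for *Krt5*, 15.1, 9.86 and 37.2 CPM for *Krt14*, 113, 66.7 and 244 CPM for *Krt15* and 21.5, 8.29 and 43.0 CPM for *Krt17*. Library 3 had the highest floor for all 4 genes, so a low level is read below as a ratio to the floor of its own library.

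*Krt5* was well above the floor in every *Trp63*+ class. It measured 1156, 976 and 1803 CPM in *Trp63*+ *Tmprss11a*+ cells of libraries 1, 2 and 3, 645, 580.2 and 1393 CPM in *Trp63*+ *Nkx2-1*+ cells, 1062, 1089 and 1687 CPM in cells with both and 612, 434 and 1280.0 CPM in cells with neither. Its highest levels were in *Krt13*-high *Trp63*+ cells, at 2247, 2033 and 3450.1 CPM, each above the same library's value in every other class, and it measured 1203, 821 and 1902 CPM in *Krt13*-high *Trp63*- cells. *Scgb3a2*-high cells had 968, 962 and 1475 CPM with *Trp63* and 70.4, 117 and 303 CPM without it, ranges that did not overlap, the latter 2.91 to 5.26 times the floor. *Foxj1*+ cells, at 18.2, 16.6 and 63.7 CPM, were below the floor in all 3 libraries. In library 2 that floor rests on 6 *Krt5* UMIs from 32 macrophages, and its 480 muscle satellite cells gave 15.0 CPM.

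*Krt14* had separate ranges in *Trp63*+ *Tmprss11a*+ and *Trp63*+ *Nkx2-1*+ cells, as did *Krt15* and *Krt17* below, beside a share of all genes that was not computed. It measured 904, 642 and 1102 CPM in *Trp63*+ *Tmprss11a*+ cells and 462, 436 and 533 CPM in *Trp63*+ *Nkx2-1*+ cells, with no overlap, 992, 1252 and 1300.1 CPM in cells with both and 401, 328 and 679.9 CPM in cells with neither. In *Krt13*-high cells it was 1849, 1001 and 2109 CPM with *Trp63* and 433, 228 and 290.1 CPM without, again with no overlap. *Scgb3a2*-high *Trp63*+ cells, at 278, 295 and 298 CPM, lay below all other *Trp63*+ classes. In *Scgb3a2*-high *Trp63*- cells, at 16.9, 20.1 and 44.2 CPM, *Krt14* was 1.11 to 2.04 times the floor, and in *Foxj1*+ cells, at 12.9, 9.34 and 36.9 CPM, 0.850 to 0.990 times.

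*Krt15* stayed far above the floor in both suprabasal and secretory cells without *Trp63*. It measured 4734, 4180.3 and 6249 CPM in *Trp63*+ *Tmprss11a*+ cells, 1831, 1715 and 4009.9 CPM in *Trp63*+ *Nkx2-1*+ cells, 2797, 3005 and 4812 CPM in cells with both and 1774, 1605 and 3876 CPM in cells with neither. *Krt13*-high cells had 5945, 7140.2 and 9872 CPM with *Trp63* and 8805, 7746 and 12743 CPM without, higher without it in each library though the ranges overlapped. *Scgb3a2*-high cells had 3623, 3993 and 5399.6 CPM with *Trp63* and 1907, 1704 and 3252 CPM without, the latter 13.3 to 25.5 times the floor. In *Foxj1*+ cells it was 113, 147 and 249 CPM, 1.000 to 2.20 times the floor.

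*Krt17* was highest in the *Krt13*-high classes. It measured 831, 507 and 1157 CPM in *Trp63*+ *Tmprss11a*+ cells, 225, 231 and 427 CPM in *Trp63*+ *Nkx2-1*+ cells, 667, 669 and 1131 CPM in cells with both and 348, 223 and 726 CPM in cells with neither. *Krt13*-high cells had 1437, 1126 and 3203 CPM with *Trp63* and 1424, 669.9 and 3129 CPM without it, widely spread between libraries. *Scgb3a2*-high cells had 319.9, 372 and 421 CPM with *Trp63* and 30.5, 83.2 and 72.1 CPM without it, the latter 1.42 to 10.0 times the floor. *Foxj1*+ cells, at 14.1, 11.9 and 38.6 CPM, lay 0.656 to 1.44 times the floor.

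**Figure D1:**
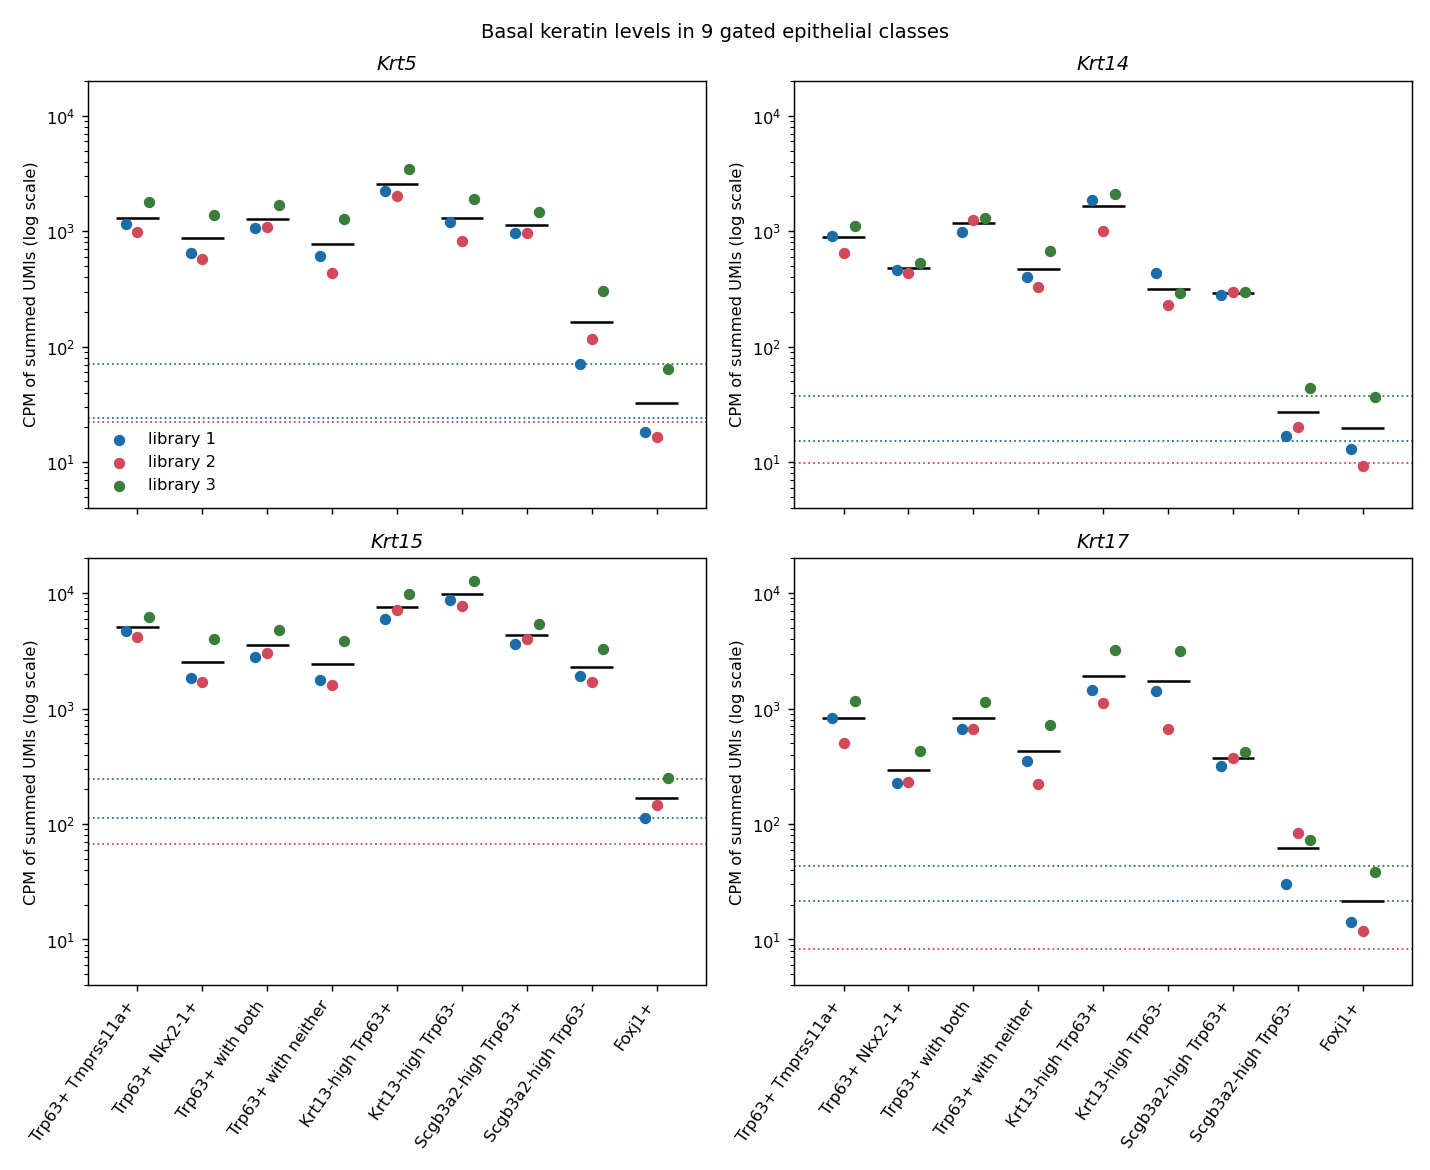
Levels of the 4 keratins in the 9 gated classes, in CPM of summed UMIs on a log scale. Each point is 1 library, bars are means of 3 libraries, and dotted lines mark the highest level in a non-epithelial class of each library. *Foxj1*+ cells lie near these lines for all 4 genes, and *Scgb3a2*-high *Trp63*- cells lie near them for *Krt14* (1.11 to 2.04 times) but not for *Krt15* (13.3 to 25.5 times).

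By mean level the order of classes for *Krt5* was *Krt13*-high *Trp63*+ (2577 ± 764 CPM, SD, n = 3), *Trp63*+ *Tmprss11a*+ (1312 ± 435), *Krt13*-high *Trp63*- (1308 ± 549), both (1279 ± 353), *Scgb3a2*-high *Trp63*+ (1135 ± 295), *Trp63*+ *Nkx2-1*+ (873 ± 452), neither (775 ± 446), *Scgb3a2*-high *Trp63*- (163 ± 123) and *Foxj1*+ cells (32.8 ± 26.8). The library ranges of the second to the seventh of these overlapped each with the next. For *Krt14* it was *Krt13*-high *Trp63*+ (1653 ± 579 CPM), both (1181 ± 166), *Trp63*+ *Tmprss11a*+ (883 ± 231), *Trp63*+ *Nkx2-1*+ (477 ± 50.0), neither (469.6 ± 186), *Krt13*-high *Trp63*- (317 ± 105), *Scgb3a2*-high *Trp63*+ (290.3 ± 10.8), *Scgb3a2*-high *Trp63*- (27.0 ± 14.9) and *Foxj1*+ cells (19.7 ± 15.0). Its ranges were apart only at the steps from *Trp63*+ *Tmprss11a*+ to *Trp63*+ *Nkx2-1*+ and from *Scgb3a2*-high *Trp63*+ to *Scgb3a2*-high *Trp63*- cells. *Krt15* had its highest mean in *Krt13*-high *Trp63*- cells (9765 ± 2633 CPM), then *Krt13*-high *Trp63*+ (7652 ± 2013) and *Trp63*+ *Tmprss11a*+ cells (5054 ± 1071), and *Krt17* in *Krt13*-high *Trp63*+ (1922 ± 1120.2), then *Krt13*-high *Trp63*- (1741 ± 1259.8) and *Trp63*+ *Tmprss11a*+ cells (832 ± 325), with overlapping ranges between neighbours.

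The share of cells with a *Krt14* UMI also differed between classes. In cells thinned to 5000 UMIs it was 65.5% ± 7.45 (SD, n = 3) in *Trp63*+ *Tmprss11a*+ cells (76.5% ± 7.01 before thinning), 40.8% ± 7.11 in *Trp63*+ *Nkx2-1*+ cells (51.8% ± 9.56) and 24.1% ± 3.45 in *Scgb3a2*-high *Trp63*+ cells (39.4% ± 8.60). In muscle satellite cells, which should lack it, the share was 8.90% ± 6.57 (14.2% ± 7.34). In *Scgb3a2*-high *Trp63*- cells it was 11.6% ± 7.66 (26.0% ± 10.4), with overlapping ranges. Within each library the thinned share in *Scgb3a2*-high *Trp63*- cells lay above that in satellite cells, though only slightly in library 1. This difference was not tested. Median depths before thinning were 14614 to 19631.5, 13438 to 18481, 16634 to 23230, 6438 to 9065.5 and 11169.5 to 15143 UMIs in these 5 classes. For *Krt15* the thinned share was 90.5% ± 8.43 in *Scgb3a2*-high *Trp63*- cells (96.8% ± 3.72) against 42.8% ± 21.0 (56.4% ± 20.1) in satellite cells.

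Among all *Trp63*+ cells thinned to 5000 UMIs (5053, 4101 and 14846 cells), all 4 keratins were detected in 32.6%, 31.1% and 56.2% of the cells of libraries 1, 2 and 3, and none of them in 1.60%, 2.44% and 0.0741%. Library 3 had both the highest share with all 4 and the highest floor, and the part of free RNA in that share was not tested. The variance of the thinned counts over all *Trp63*+ cells was 4.46 to 5.30 times the mean for *Krt5*, 8.64 to 12.6 for *Krt14*, 10.4 to 13.8 for *Krt15* and 7.70 to 13.1 for *Krt17*, where counting alone gives a ratio near 1. In fibroblasts it was 1.02 to 1.16 for *Krt5*, 1.05 to 1.54 for *Krt14*, 1.24 to 2.69 for *Krt15* and 1.06 to 1.27 for *Krt17*. The ratio nears 1 as the mean falls, so these values cannot show whether the relative spread differs between the 2 kinds of cells. Mean thinned counts of *Krt5* were 4.19 to 8.31 UMIs in *Trp63*+ cells and 0.0654 to 0.261 in fibroblasts. Those of *Krt15* were 15.3 to 27.8 and 0.268 to 1.03.

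The first comparison asked how *Trp63*+ cells of the squamous and the airway side differ. *Krt14* and *Krt17* were higher in *Trp63*+ *Tmprss11a*+ than in *Trp63*+ *Nkx2-1*+ cells, by 0.90 ± 0.18 (SE) and 1.51 ± 0.32 on the log2 scale (adjusted p = 0.0127 and 0.0178, edgeR's quasi-likelihood test with Benjamini-Hochberg adjustment over 15299 genes). *Krt15* differed by 1.03 ± 0.31 (edgeR adjusted p = 0.0648) and *Krt5* by 0.61 ± 0.34 (0.285). These 2 of 4 stand beside 17.1% of all genes tested. Every library gave both sums, and with the library as a block all 4 were higher beside 34% of genes, *Krt5* by 0.67 ± 0.09 and *Krt15* by 1.11 ± 0.13 (edgeR adjusted p = 0.00142 and 0.000894). Without library 1 the fit without a block called neither *Krt14* (0.84, edgeR adjusted p = 0.211) nor *Krt17* (1.34, 0.23), and without library 3 it also called *Krt5* (0.80, 0.00746) and *Krt15* (1.33, 0.00135).

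Beside the members, 4 of 15 other keratins tested were higher and 1 lower, with a median log2 difference of 0.82 against 0.00 over all genes. *Krt6a*, a keratin of wounds and oral epithelium, was higher by 3.23 ± 0.53 and *Krt4*, of suprabasal squamous cells, by 2.18 ± 0.24, and *Krt18*, of simple epithelia, was lower at -1.38 ± 0.26 (edgeR adjusted p = 0.00615, 0.0012 and 0.0114). Of 13 genes for hemidesmosomes and the basement membrane, 5 were higher and 1 lower. Among them *Col17a1*, encoding a hemidesmosomal collagen, was higher by 1.01 ± 0.17 and *Itga6*, an integrin chain of hemidesmosomes, by 0.72 ± 0.11. Of 12 basal transcription factors 4 were higher and 1 lower, with *Sox15* at 1.94 ± 0.29. The cell cycle genes *Mki67* and *Top2a* moved with the keratins, at 25.6 and 29.9 CPM in *Trp63*+ *Tmprss11a*+ against 1.60 and 2.01 CPM in *Trp63*+ *Nkx2-1*+ cells. Fibroblast markers moved the other way, at 167 CPM in *Trp63*+ *Tmprss11a*+ and 694 CPM in *Trp63*+ *Nkx2-1*+ cells, as did thyroid markers, at 21.5 and 677 CPM. Mitochondrial UMIs made up 3.23% to 3.65% in *Trp63*+ *Tmprss11a*+ and 2.64% to 2.89% in *Trp63*+ *Nkx2-1*+ cells over the libraries. The part of any of these in the differences was not tested.

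Towards the suprabasal squamous cells, *Krt13*-high *Trp63*+ cells were compared with *Trp63*+ *Tmprss11a*+ cells. *Krt5* was higher by 1.11 ± 0.27 (edgeR adjusted p = 0.0326), and *Krt14*, *Krt15* and *Krt17* differed by 1.05 ± 0.30, 0.73 ± 0.24 and 1.35 ± 0.43 (edgeR adjusted p = 0.0512, 0.0733 and 0.0686). This is 1 of 4 beside 16.2% of 15108 genes, and with the library as a block all 4 were higher beside 41.2%, *Krt15* with the largest edgeR adjusted p (0.00285). The call on *Krt5* was lost without library 1 (1.12, edgeR adjusted p = 0.232) and without library 2 (1.11, 0.093). *Krt13*-high *Trp63*+ cells had median depths of 22594.5 to 27794.5 UMIs against 14614 to 19631.5, and *Mki67* averaged 67.9 CPM in them against 25.6 CPM, and the part of either was not tested. Among other keratins 8 of 24 were higher without the block, *Krt6a* by 3.22 ± 0.50 and *Krt4* by 2.01 ± 0.18, and 1 was lower, *Krt18* at -0.91 ± 0.15. With the block 15 of 24 were higher and 2 lower.

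In *Krt13*-high *Trp63*- cells the members parted. Against *Trp63*+ *Tmprss11a*+ cells *Krt14* was lower at -1.29 ± 0.25 and *Krt15* higher by 1.14 ± 0.23 (edgeR adjusted p = 0.00408 and 0.00601). *Krt17* differed by 1.28 ± 0.48 (edgeR adjusted p = 0.0773) and *Krt5* by 0.20 ± 0.31 (0.681). These 2 of 4 stand beside 27% of 14159 genes, and with the block *Krt17* was also higher, by 1.06 ± 0.17 (edgeR adjusted p = 3.77e-05), beside 33.8%. When cells were thinned to 5000 UMIs before the gates, *Krt14* was at -0.35 (edgeR adjusted p = 0.298), *Krt5* at 0.77 (0.0391) and *Krt17* at 1.74 (0.0239). Thinning moves *Trp63*+ cells that lost their *Trp63* UMIs into the *Trp63*- gate. It also leaves out cells under 5000 UMIs and makes the same *Krt13* gate harder to reach. The part of each of these changes in the thinned values was not tested. Without library 1 *Krt15* was not called (1.18, edgeR adjusted p = 0.0851), and without library 2 *Krt17* was (1.41, 0.0296). Gland markers stood at 4124 CPM against 112 CPM, and their part was not tested.

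In the same comparison 10 of 13 hemidesmosome and basement membrane genes were lower and none higher, among them *Lamb3*, a laminin chain, at -2.17 ± 0.24 and *Col17a1* at -1.68 ± 0.20. Of 12 basal transcription factors 3 were lower, *Snai2* at -3.00 ± 0.29, 1 was higher and 8 did not pass, with a median of 0.08 against -0.08 over all genes. Of 18 other keratins 14 were higher and none lower, *Krt23* by 4.06 ± 0.24, *Krt8* by 2.46 ± 0.18, *Krt19* by 2.15 ± 0.17 and *Krt7* by 2.00 ± 0.17. Of 10 differentiation transcription factors 6 were higher, with *Grhl3* at 4.58 ± 0.42.

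**Figure D2:**
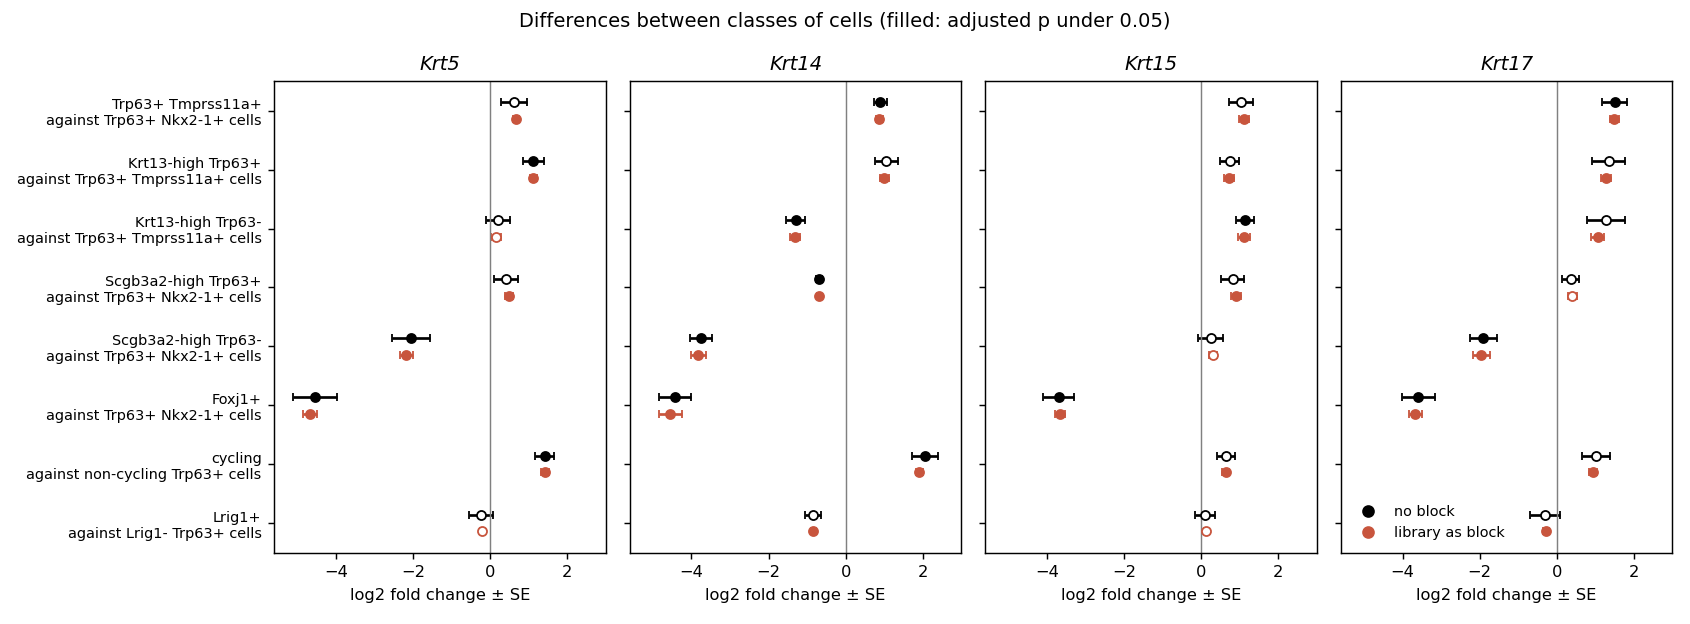
Log2 fold changes of the 4 keratins with standard errors in comparisons between classes of cells of the 3 libraries, from fits without a block and with the library as a block. Filled points passed an adjusted p of 0.05. In *Krt13*-high *Trp63*- against *Trp63*+ *Tmprss11a*+ cells *Krt14* lies at -1.29 ± 0.25 and *Krt15* at 1.14 ± 0.23.

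On the airway side, *Scgb3a2*-high *Trp63*+ cells were compared with *Trp63*+ *Nkx2-1*+ cells. *Krt14* was lower at -0.69 ± 0.09 (edgeR adjusted p = 0.00908), and *Krt5*, *Krt15* and *Krt17* differed by 0.41 ± 0.30, 0.82 ± 0.30 and 0.36 ± 0.22 (edgeR adjusted p = 0.531, 0.223 and 0.433). This is 1 of 4 beside 2.28% of 14005 genes. With the library as a block 3 of 4 passed beside 11.6%: *Krt14* was lower at -0.69 ± 0.06, and *Krt5* and *Krt15* were higher by 0.48 ± 0.11 and 0.90 ± 0.12 (edgeR adjusted p = 0.000683, 0.0264 and 0.00409). The call on *Krt14* without the block was lost without library 1 (-0.68, edgeR adjusted p = 0.253), without library 2 (-0.76, 0.0973), with gates at 3 UMIs (-0.59, 0.0928) and with doublets kept (-0.56, 0.0501). Without library 3, *Krt5* (0.67), *Krt15* (1.12) and *Krt17* (0.62) passed as well. Without the block 4 of 12 other keratins were higher, *Krt8* by 0.68 ± 0.08 and *Krt19* by 0.67 ± 0.11, and none of 13 hemidesmosome and basement membrane genes passed. With the block 7 of the 12 keratins were higher and 3 of the 13 genes lower. The *Trp63*+ *Nkx2-1*+ cells held 677 CPM of thyroid markers (89.8 to 1110.3 over the libraries), against 9.21 CPM in *Scgb3a2*-high *Trp63*+, 5.54 CPM in *Scgb3a2*-high *Trp63*- and 4.67 CPM in *Foxj1*+ cells, and their part in this and the next comparisons with these cells was not tested.

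In *Scgb3a2*-high *Trp63*- cells, against *Trp63*+ *Nkx2-1*+ cells, *Krt14* was lower at -3.76 ± 0.29, *Krt5* at -2.05 ± 0.50 and *Krt17* at -1.90 ± 0.36 (edgeR adjusted p = 6.51e-05, 0.0161 and 0.00508). *Krt15* differed by 0.24 ± 0.33 (edgeR adjusted p = 0.632). These 3 of 4 stand beside 28.6% of 13098 genes, and beside 39.2% with the block. *Krt14* lay near the floor in these cells in all 3 libraries (1.11 to 2.04 times) and *Krt17* in libraries 1 and 3 (1.42 and 1.68 times), so the sizes of both folds, and of the differences between sides built on them below, are limited by free RNA. Thinning before the gates moved *Krt5* to -0.87 and *Krt17* to -0.51 (edgeR adjusted p = 0.116 and 0.242), and the call on *Krt5* was lost without library 1 (-1.86, 0.0769) or library 2 (-2.11, 0.0753). 12 of 13 hemidesmosome and basement membrane genes were lower, *Lamb3* at -3.33 ± 0.29, and so were 7 of 12 basal transcription factors, *Snai2* at -3.35 ± 0.21, while 1 was higher. The simple epithelial keratins *Krt8*, *Krt18* and *Krt19* were higher, by 1.49 ± 0.14, 1.26 ± 0.26 and 1.11 ± 0.14, and *Krt7*, another keratin of simple epithelia, differed by -0.03 ± 0.22 (edgeR adjusted p = 0.943). Gland markers stood at 10974 CPM against 82.7 CPM and myoepithelial markers at 45.0 CPM (7.83 to 92.3 over the libraries) against 4.64 CPM, and their part was not tested.

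In *Foxj1*+ cells all 4 members were lower than in *Trp63*+ *Nkx2-1*+ cells, *Krt5* at -4.55 ± 0.56, *Krt14* at -4.42 ± 0.42, *Krt15* at -3.69 ± 0.40 and *Krt17* at -3.59 ± 0.43 (edgeR adjusted p at most 7.72e-05). This stands beside 69% of 14147 genes, and beside 73% with the block. Since these levels were 0.656 to 2.20 times the floor, the sizes of the folds are limited by free RNA. Median depths were 6060 to 14098 UMIs in *Foxj1*+ and 13438 to 18481 in *Trp63*+ *Nkx2-1*+ cells, and the part of depth was not tested. Of 13 hemidesmosome and basement membrane genes 13 were lower, *Lamb3* at -6.32 ± 0.34. Of 12 basal transcription factors 8 were lower and 3 higher, and of 12 other keratins 4 were lower and 4 higher. *Krt8* was higher by 2.33 ± 0.13, and *Krt18*, *Krt19* and *Krt7* differed by 0.22 ± 0.23, 0.14 ± 0.12 and 0.36 ± 0.20 (edgeR adjusted p = 0.407, 0.341 and 0.129).

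The change outside the *Trp63*+ cells was then compared between the 2 sides. The change from *Trp63*+ *Tmprss11a*+ to *Krt13*-high *Trp63*- cells was set against that from *Trp63*+ *Nkx2-1*+ to *Scgb3a2*-high *Trp63*- cells in 1 model. The squamous change lay above the airway change by 2.25 ± 0.65 for *Krt5*, 2.48 ± 0.42 for *Krt14* and 3.17 ± 0.71 for *Krt17* (edgeR adjusted p = 0.0411, 0.00238 and 0.0116), and by 0.90 ± 0.44 for *Krt15* (0.215). These 3 of 4 stand beside 11.9% of 13777 genes, and with the block all 4 passed beside 21.2%, *Krt15* at 0.83 ± 0.18 (edgeR adjusted p = 0.00519). Without library 1 none of the 4 was called, with *Krt5* at 2.09, *Krt14* at 2.02 and *Krt17* at 3.16 (edgeR adjusted p = 0.262, 0.0872 and 0.155), and without library 2 *Krt5* was not (2.43, 0.127). Thinned cells gave 1.62 for *Krt5* and 2.22 for *Krt17* (edgeR adjusted p = 0.0658 and 0.0511).

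The mix of the 4 keratins also differed between classes. Capture can differ between genes, so shares are compared between classes only. *Krt15* made up 63.0% ± 2.95 (SD, n = 3) of the UMIs of the 4 keratins in *Trp63*+ *Tmprss11a*+ cells, 75.5% ± 5.77 in *Krt13*-high *Trp63*- cells and 90.4% ± 3.24 in *Scgb3a2*-high *Trp63*- cells. For every 100 *Krt5* UMIs there were 78.2, 65.8 and 61.1 *Krt14* UMIs in *Trp63*+ *Tmprss11a*+ cells of libraries 1, 2 and 3, 71.5, 75.2 and 38.2 in *Trp63*+ *Nkx2-1*+ cells and 93.4, 115 and 77.1 in cells with both. *Scgb3a2*-high *Trp63*+ cells had 28.7, 30.7 and 20.2 and *Krt13*-high *Trp63*- cells 36.0, 27.8 and 15.3, in each library below every *Trp63*+ class without high *Scgb3a2*. These ratios were not tested.

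**Figure D3:**
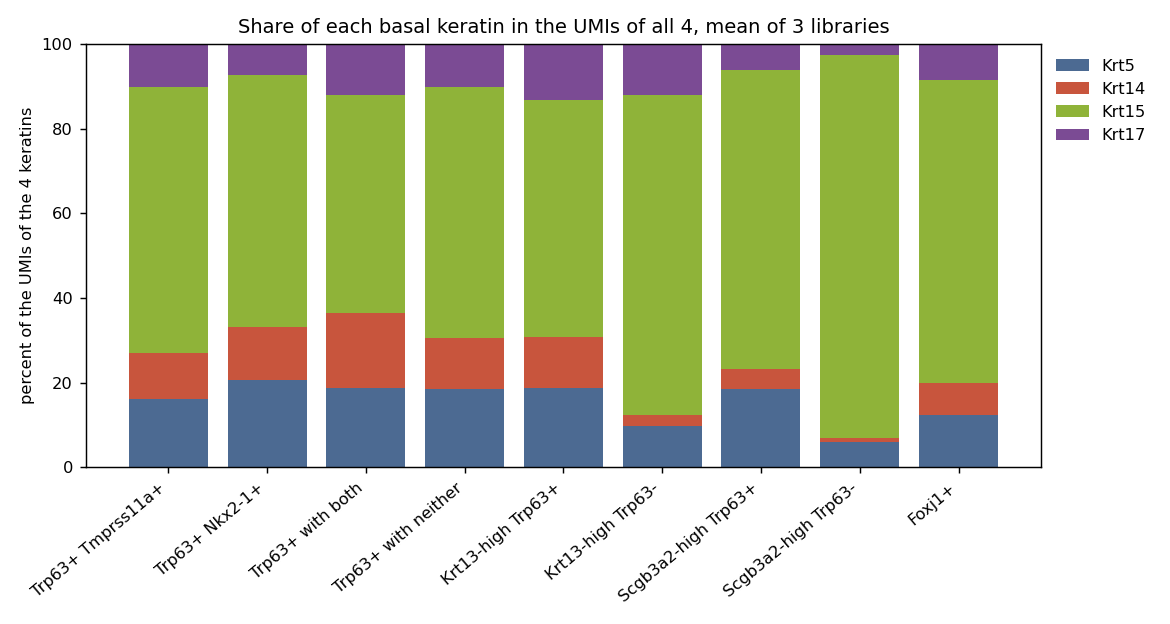
Share of each keratin in the UMIs of all 4 (percent), as means of 3 libraries, in the gated classes. *Krt15* made up 90.4% ± 3.24 in *Scgb3a2*-high *Trp63*- cells and 51.5% ± 2.09 in *Trp63*+ cells with both *Tmprss11a* and *Nkx2-1*, and *Krt14* 1.03% ± 0.186 and 17.8% ± 3.13.

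Cycling cells were the 74, 21 and 244 *Trp63*+ cells with at least 2 UMIs each of *Mki67* and *Top2a*, compared with *Trp63*+ cells without a UMI of either. *Krt14* measured 2134, 1487 and 4254 CPM in cycling and 723, 584 and 786 CPM in non-cycling cells, and *Krt5* 2242, 2736 and 3652 CPM against 1005, 903 and 1655 CPM, with no overlap for either. *Krt15* measured 4370.3, 6839 and 6533 CPM against 3404, 3462 and 5659.9 CPM and *Krt17* 990.2, 753 and 1999 CPM against 595, 460.5 and 1005 CPM, with overlapping ranges. *Krt14* was higher by 2.05 ± 0.34 and *Krt5* by 1.41 ± 0.25 (edgeR adjusted p = 0.00136 and 0.0021), while *Krt15* differed by 0.64 ± 0.24 (0.0633) and *Krt17* by 1.01 ± 0.37 (0.0557). These 2 of 4 stand beside 34.3% of 16346 genes, and with the block all 4 were higher beside 40.3% (edgeR adjusted p at most 1.49e-11). Such small p-values draw on a spread estimated over all genes and do not measure 3 pools alone. Library 2 gave only 21 cycling cells. Without library 3 *Krt17* was also called (0.72, 0.0281). Suprabasal squamous markers moved with cycling, at 2229 CPM against 593 CPM, as did depth, with medians of 22279 to 28815 UMIs against 12915 to 17891.5, and their part was not tested. Of 24 other keratins 7 were higher and 4 lower. *Krt6a* was higher by 2.23 ± 0.48, and *Krt18* and *Krt19* were lower at -1.73 ± 0.35 and -1.34 ± 0.26.

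Since the sort was for a reporter of *Lrig1* expression, *Trp63*+ cells with any *Lrig1* UMI were compared with those without one. *Krt14* measured 595, 540.1 and 794 CPM in *Lrig1*+ and 1192, 844 and 1468 CPM in *Lrig1*- cells of libraries 1, 2 and 3, lower with *Lrig1* in 3 of 3 and without overlap. *Krt5* measured 999, 936 and 1689 CPM against 1243, 964 and 2065 CPM, *Krt15* 3705, 3681 and 5876 CPM against 3308, 3263 and 5892 CPM, and *Krt17* 585, 486 and 1041 CPM against 783, 498 and 1353 CPM, all with overlapping ranges. Without the block edgeR called none of 17602 genes (0%), with *Krt14* at -0.86 ± 0.21 (adjusted p = 0.953), and 759 genes had an unadjusted p under 0.05. DESeq2 without a block called 56 genes, *Krt14* among them (DESeq2 adjusted p = 0.0156). With the library as a block *Krt14* was lower at -0.84 ± 0.06 and *Krt17* at -0.28 ± 0.07 (edgeR adjusted p = 0.000806 and 0.0487), 2 of 4 beside 7.36% of genes. *Lrig1*- cells were shallower, with medians of 11646, 14371.5 and 7727 UMIs against 16732, 19423 and 15352, and in cells thinned to 5000 UMIs the fold of *Krt14* without a block was -0.69. *Krt13* averaged 359.9 CPM in *Lrig1*+ and 568 CPM in *Lrig1*- cells, and *Mki67* 17.5 and 28.3 CPM. Myoepithelial markers, of gland cells that also express *Krt5* and *Krt14*, summed to 4.03 CPM in *Lrig1*+ and 26.2 CPM in *Lrig1*- cells (1.38 to 6.75 and 3.71 to 44.6 over the libraries). Gland markers summed to 123 and 262 CPM and endothelial markers to 3.45 and 23.3 CPM. The part of any of these was not tested.

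*Krt14* measured less in cells with than without *Lrig1* UMIs in each library on both sides, which was not tested within either class. In *Trp63*+ *Tmprss11a*+ cells it measured 730.5, 554 and 884 CPM with *Lrig1* and 1502, 954 and 1696 CPM without, and in *Trp63*+ *Nkx2-1*+ cells 332, 373 and 416 CPM with and 704, 588 and 760.1 CPM without. The groups did not overlap in either class. *Mki67* averaged 22.0 CPM with and 37.1 CPM without *Lrig1* in *Trp63*+ *Tmprss11a*+ cells, and 1.59 and 1.59 CPM in *Trp63*+ *Nkx2-1*+ cells. Myoepithelial markers summed to 2.80 and 7.82 CPM in the former and 2.48 and 8.78 CPM in the latter, and *Krt13* averaged 42.1 and 88.4 CPM in the former. Median depths were 16648.5 to 20554 UMIs with and 9322 to 16132 without *Lrig1* in the former. In the latter they were 14588.5 to 19287 and 11483 to 17296 UMIs. A cell without a *Lrig1* UMI need not lack *Lrig1* RNA. The part of depth and of these genes was not tested. Between the 2 sides the *Lrig1* effect differed by -0.01 ± 0.55 for *Krt5*, -0.07 ± 0.27 for *Krt14*, 0.14 ± 0.50 for *Krt15* and -0.06 ± 0.56 for *Krt17*, and edgeR called none of the 4 and 0% of 13785 genes with and without the block (219 had an unadjusted p under 0.05 without it).

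**Figure D4:**
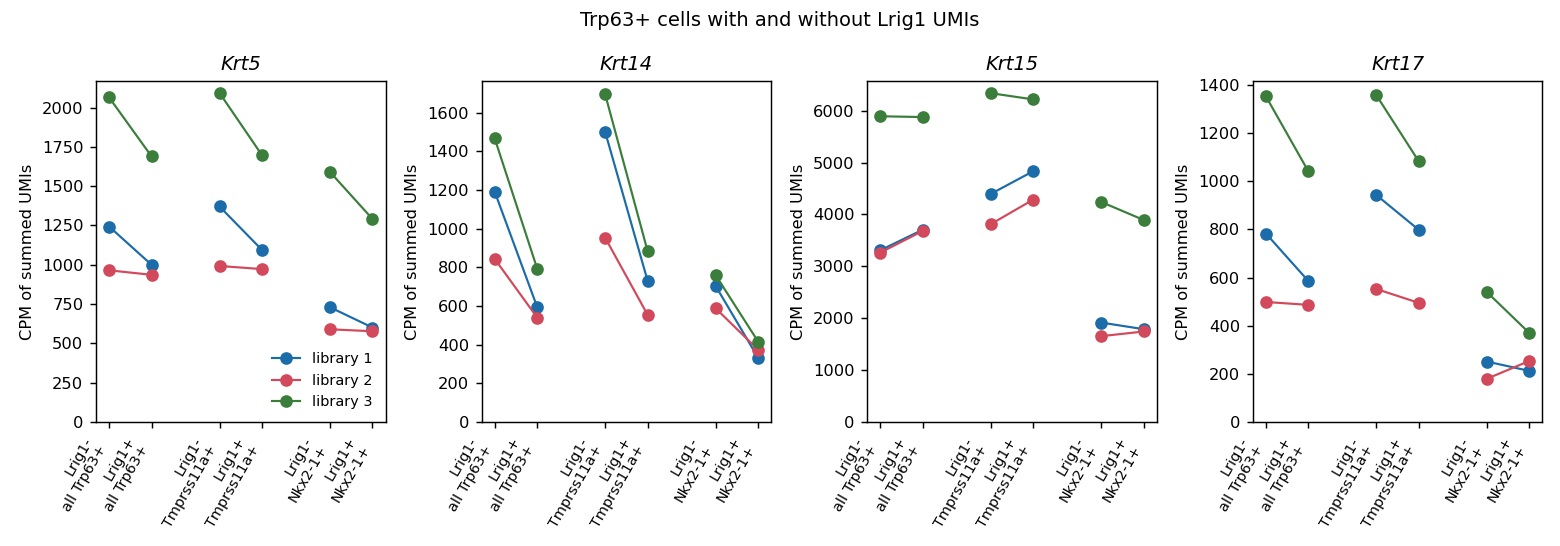
Levels of the 4 keratins in CPM of summed UMIs in *Trp63*+ cells with and without *Lrig1* UMIs, over all *Trp63*+ cells and in *Trp63*+ *Tmprss11a*+ and *Trp63*+ *Nkx2-1*+ cells. Each line joins the values of 1 library. Over all *Trp63*+ cells *Krt14* lies at 595, 540.1 and 794 CPM with and 1192, 844 and 1468 CPM without *Lrig1*.

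Within single *Trp63*+ cells thinned to 5000 UMIs the members varied together to unequal degrees. Pearson's r over cells, as the mean of 3 libraries, was 0.47 ± 0.09 (SD) for *Krt5* with *Krt15*, 0.44 ± 0.02 for *Krt5* with *Krt17*, 0.42 ± 0.05 for *Krt5* with *Krt14* and 0.42 ± 0.05 for *Krt14* with *Krt17*. It was 0.25 ± 0.04 for *Krt15* with *Krt17* and 0.11 ± 0.03 for *Krt14* with *Krt15*. These are descriptions over 4101 to 14846 cells of a library, which share its free RNA. Within classes the r of *Krt14* with *Krt15* was 0.15 ± 0.06 in cells with neither gate gene, 0.05 ± 0.10 in *Trp63*+ *Tmprss11a*+, -0.12 ± 0.09 in *Trp63*+ *Nkx2-1*+ and -0.21 ± 0.06 in *Krt13*-high *Trp63*+ cells, negative in all 3 libraries of the last 2. The r of *Krt14* with *Krt17*, which share a stretch of transcript end, was 0.59 ± 0.06 in cells with both gate genes and 0.05 ± 0.06 in *Krt13*-high *Trp63*+ cells. *Krt5* with *Krt15*, the pair with the highest mean over all *Trp63*+ cells, had 0.01 ± 0.09 in *Krt13*-high *Trp63*+ cells.

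**Figure D5:**
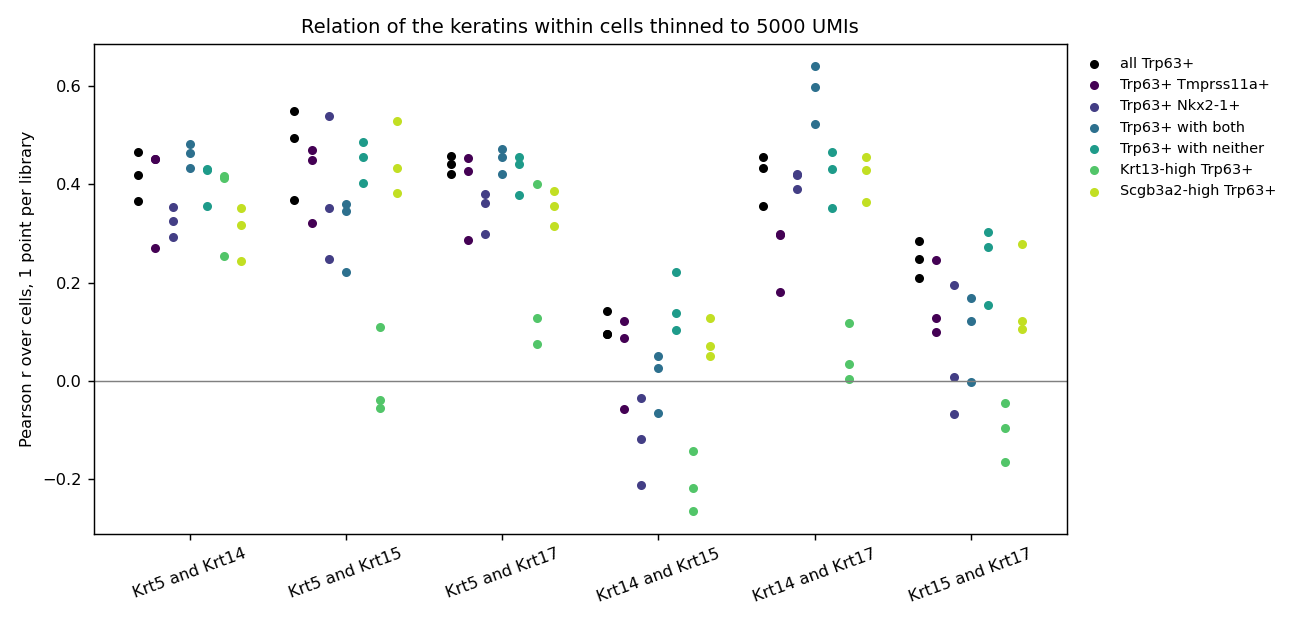
Pearson's r between pairs of keratins over single cells thinned to 5000 UMIs, in all *Trp63*+ cells and in classes of them, with 1 point a library. For *Krt14* with *Krt15* the libraries lie between -0.26 and -0.14 in *Krt13*-high *Trp63*+ cells and between 0.09 and 0.14 in all *Trp63*+ cells.

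Other keratins separated the members in the same cells. *Krt6a* had an r of 0.43 ± 0.04 with *Krt17*, 0.36 ± 0.07 with *Krt14* and 0.17 ± 0.03 with *Krt15*, and *Krt4* had 0.43 ± 0.04 with *Krt15* and 0.13 ± 0.05 with *Krt14*. *Krt19* was at -0.45 ± 0.04 with *Krt14*, -0.29 ± 0.06 with *Krt17*, -0.25 ± 0.05 with *Krt5* and 0.02 ± 0.04 with *Krt15*. *Krt18* lay between -0.35 and -0.20 with the 4 members, *Lrig1* between -0.12 and -0.03, and *Fos* and *Atf3*, genes that tissue dissociation induces, between 0.01 and 0.12.

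The 5 genes most like each member by mean r within *Trp63*+ cells, among 6777 genes and leaving out the members, were *Lgals7* (0.40), *Ptma* (0.38), *Anxa2* (0.36), *Actg1* (0.33) and *Sfn* (0.33) for *Krt5* and *Lgals7* (0.47), *Igfbp2* (0.41), *Ly6a* (0.39), *Krt6a* (0.36) and *Col17a1* (0.36) for *Krt14*. For *Krt15* they were *Gsto1* (0.47), *Krt4* (0.43), *Aldh3a1* (0.43), *Anxa2* (0.42) and *S100a6* (0.42), and for *Krt17* *Krt6a* (0.43), *Sfn* (0.35), *Aldh3a1* (0.35), *Ly6a* (0.34) and *Anxa1* (0.33). Over the 27 sums of 9 classes in 3 libraries, points that share libraries, the genes most like *Krt5* among 9954 were *Trp53*, *Phlda3*, *Trim29*, *Gna15* and *Wiz* (r of 0.98 to 0.99), and those most like *Krt14* *Wnt10a*, *Itga6*, *Tns4*, *Tgfb1* and *Dsc3* (r of 0.97 to 0.98). Those most like *Krt15* were *S100a14*, *Mapkapk3*, *Cryl1*, *Cotl1* and *L1cam* (r of 0.97 to 0.98), and *Serpinb5*, *Nmd3*, *Dsc2* and *Slc25a24* were among those most like *Krt17* (r of 0.97 to 0.98).

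Other keratin genes near the members were measured in the same cells, and their levels are not ranked here because capture can differ between genes. Over all *Trp63*+ cells *Krt9* averaged 0.0250 CPM and *Krt16* 4.98 CPM, while *Krt19*, between *Krt15* and *Krt14*, averaged 411 CPM and *Krt13*, next to *Krt15*, 431 CPM. *Krt42*, on the other side of *Krt17*, averaged 0.217 CPM. Of the neighbours of *Krt5* on chromosome 15, *Krt6a* averaged 163 CPM and *Krt71* 0.00445 CPM. Of 49 keratins other than the members, 15 reached 10 CPM in at least 1 class. *Krt16* ranged over the libraries from 0.490 to 3.84 CPM in *Trp63*+ *Tmprss11a*+ and from 0.998 to 84.9 CPM in *Krt13*-high *Trp63*+ cells, which overlapped.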

How the data were processed

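Larynges were dissociated, tdTomato-positive cells were sorted, and libraries were made with 10x Genomics 3′ chemistry. The authors deposited raw UMI counts per gene and cell barcode for 3 libraries, and the submitters' processing notes name Cell Ranger 8.0.1 and the mm39 build. The members and gene lists were chosen with earlier results of these data known.

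A barcode was kept with 500 to 8000 detected genes, a total between 1000 and 40000 UMIs and no more than 8% of them mitochondrial, and simulated-doublet scores removed 0.4% per 1000 barcodes. Of 60530 barcodes 44542 were kept. Neither limit had been applied in the deposited counts. UMIs were summed per library and class, for classes of at least 20 cells, and tested with edgeR 4.0.16 (R 4.3.3; TMM, filterByExpr, glmQLFit and glmQLFTest, two-sided, Benjamini-Hochberg adjustment over all genes, threshold 0.05), leaving out gate genes. DESeq2 1.42.0, other gates, no filter, thinning to 5000 UMIs, doublets kept, the library as a block and leaving out each library were alternatives. The SE of an edgeR fold is its absolute value divided by the square root of its F statistic, and so holds the same information as the unadjusted p-value. Counts of genes of a fixed list are from the fit without a block unless the block is named. Classes compared within a library were drawn from 1 pool of mice, which pairs their sums, and their deviations from the class means correlated by 0.104 to 0.725. Relations within cells used log1p of UMIs per 10000 in Python 3.11.15. Scripts were tested on simulated data.

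Named beside the members were the gate genes, up to 3 genes of each fixed list with the largest change among those past the threshold at a mean of 10 CPM or more, the keratins *Krt6a*, *Krt16*, *Krt19*, *Krt8*, *Krt18*, *Krt4* and *Krt7*, and the 5 genes most like each member. A gene and an upstream sequence that these rules would name are not reported here. *Krt9* and the genes beside a member were named by position, and *Krt13* as a gate gene. Of 33696 features 33185 matched the GENCODE annotation by identifier, and transcript ends were compared with blastn 2.17.0. Intervals from 3 libraries cover the spread between pools only.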

Additional observations from a re-analysis of the deposited data

Results flagged for a closer look

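The change from *Trp63*+ to *Trp63*- cells differed between the squamous and the airway side, by a test of the difference itself, for *Krt5* (2.25 ± 0.65 on the log2 scale), *Krt14* (2.48 ± 0.42) and *Krt17* (3.17 ± 0.71), with edgeR adjusted p-values of 0.0411, 0.00238 and 0.0116, beside 11.9% of 13777 genes. With the library as a block *Krt15* passed as well (0.83 ± 0.18, edgeR adjusted p = 0.00519), so that all 4 did, beside 21.2% of genes. On the squamous side *Krt14* changed by -1.29 ± 0.25 and on the airway side by -3.76 ± 0.29, the latter in cells at 1.11 to 2.04 times the floor of free RNA, which limits the size of that fold, as it does for *Krt17* in libraries 1 and 3 (1.42 and 1.68 times). With cells thinned to 5000 UMIs the difference was 1.62 for *Krt5*, 2.13 for *Krt14* and 2.22 for *Krt17* (edgeR adjusted p = 0.0658, 0.000709 and 0.0511), and the squamous change of *Krt14* alone was -0.35 (edgeR adjusted p = 0.298). Without library 2 *Krt5* was not called (2.43, edgeR adjusted p = 0.127). Without library 1 none of the differences was called, with *Krt5* at 2.09, *Krt14* at 2.02 and *Krt17* at 3.16 (edgeR adjusted p = 0.262, 0.0872 and 0.155). The *Krt13*-high *Trp63*- cells held 4124 CPM and the *Scgb3a2*-high *Trp63*- cells 10974 CPM of gland markers, and their part in the difference was not tested.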

How the results depend on the processing

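The library as a replicate block, the pairing by pool, moved the number of genes called to 5203 for *Trp63*+ *Tmprss11a*+ against *Trp63*+ *Nkx2-1*+ cells (with 4 members), 6224 for *Krt13*-high *Trp63*+ cells (4), 1629 for *Scgb3a2*-high *Trp63*+ cells (3), 1295 for *Lrig1*+ cells (2), 2918 for the difference between sides, and the members called to 4 for cycling cells. Thinning gave 1040, 1244, 139, 1655 (*Scgb3a2*-high *Trp63*-, 1 member), 1846 (cycling) and 868 genes (difference between sides, 1 member). Thinned cells and gates at 3 UMIs left the cycling comparison with 2 libraries. DESeq2 called 727 genes for *Scgb3a2*-high *Trp63*+ and 56 for *Lrig1*+ cells (1 member), and 3 members for *Krt13*-high *Trp63*+ cells, as did no filter, which gave 698 genes for *Scgb3a2*-high *Trp63*+ cells. There, doublets kept gave 208 genes and 0 members, and gates at 3 UMIs 0 members. The causes were not tested. Leaving out each library in turn gave the following ranges of genes and members called: 423 to 2842 and 0 to 4 (*Trp63*+ *Tmprss11a*+ against *Trp63*+ *Nkx2-1*+), 95 to 1434 and 0 to 1 (*Krt13*-high *Trp63*+), 1642 to 2803 and 1 to 3 (*Krt13*-high *Trp63*-), 11 to 1344 and 0 to 4 (*Scgb3a2*-high *Trp63*+), 1369 to 3683 and 2 to 3 (*Scgb3a2*-high *Trp63*-), 7860 to 9841 and 4 (*Foxj1*+), 3274 to 4125 and 2 to 3 (cycling), 0 and 0 (*Lrig1*+), and 186 to 1110 and 0 to 3 (difference between sides). The r without thinning was 0.511 for *Krt5* with *Krt17* and 0.297 for *Krt15* with *Krt17*. With *Trp63* at 1 UMI it was 0.474 and 0.294, and 0.153 for *Krt14* with *Krt15*, and Spearman's rho was 0.286 for *Krt15* with *Krt17* and 0.146 for *Krt14* with *Krt15*. Reversed were *Krt15* with *Lrig1* on thinning (-0.12) and, in the *Lrig1* effect between sides, *Krt5* with gates at 1 UMI (0.0526) and doublets kept (0.0161), *Krt14* with gates at 1 UMI (0.0255) and thinning (0.152), *Krt15* on thinning (-0.0571) and *Krt17* with gates at 1 UMI (0.125), doublets kept (0.0626) and without library 2 (0.148, with -0.317 without library 3), none of which was called. Of 400 member folds under alternatives 336 kept direction and side of the threshold, 34 passed it newly, 21 lost it and 9 reversed, and 16 of 144 class levels moved by more than 1 SD. Levels near the floor of free RNA, as in *Foxj1*+ cells, cannot be read as expression by the cells, and the part of depth in low levels was not tested.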
